A study of Mus musculus with 8 samples.

Results

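The netrin and Slit guidance genes described here are Ntn1, which encodes netrin-1, its receptors Dcc, Unc5c and Unc5d, the ligands Slit1, Slit2 and Slit3, and the receptors Robo1, Robo2 and Robo3. Members were every probeset whose only gene symbol in the platform annotation is one of these 10 genes, whatever its values. This gave 11 of the 35512 probesets on the array, with 2 probesets for Unc5d and 1 for each other gene. Of these, 10 reached the minimum signal for testing and the Robo3 probeset did not.

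RNA from 4 preparations of midbrain dopaminergic (mDA) neurons was hybridized to Affymetrix Mouse Gene 1.0 ST arrays, 2 per preparation and 8 in all. The preparations were SNc KO and VTA KO from Pitx3-/-;Th-EGFP+/- newborns, and SNc WT and VTA WT from Pitx3+/+;Th-EGFP+/- newborns, all of C57Bl/6 strain at P1-P4 and all carrying the EGFP transgene. Lateral (SNc, substantia nigra pars compacta) and medial (VTA, ventral tegmental area) blocks were dissociated, and live EGFP+ cells were sorted, so that the transgene set which cells entered every group. By the study's account the SNc of Pitx3-/- newborns has already lost its Pitx3-positive neurons and keeps the dorsal Pitx3-negative ones, whereas the Pitx3-dependent neurons of the VTA are still present. In each bulk preparation fewer cells of a type and less RNA per cell therefore cannot be told apart. No source used here states whether the 2 pools of sorted cells in a group came from separate animals, and the spread that the p-values rest on may be technical.

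Netrins and Slits are secreted proteins that steer growing axons, and both pathways act on the axons of midbrain dopaminergic neurons. Netrin-1 attracts or holds axons through Dcc, while receptors of the Unc5 family, alone or with Dcc, turn its effect into repulsion. Slits bind Robo receptors, with heparan sulfate as a cofactor, and repel axons, and in cultured frog neurons Robo can also silence attraction through Dcc.

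Among these genes Dcc differed most with the loss of Pitx3. Its signal was 0.514 times that of wild type in SNc KO and 0.629 times in VTA KO, and the SNc difference passed the test across all probesets. The Robo1 and Robo2 probesets were above VTA on every SNc array of both genotypes, with average ratios of 1.39 and 1.47 that passed the same test. The 2 Unc5d probesets and Slit3 had higher values in SNc KO than in SNc WT, by ratios of 1.57, 1.31 and 1.3, none of which passed. Ntn1, Unc5c, Slit1 and Slit2 passed in no comparison.

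The 8 arrays had medians of 6.11 to 6.24 log2 units, and 55% to 58.9% of their probesets exceeded a linear signal of 60. The 2 arrays of VTA KO stood furthest apart, with an SD of 0.376 between arrays against 0.241 to 0.252 in the other groups. The summed linear signal of 12 pericyte and smooth muscle markers was 2691 on one of them and 711 on the other. The markers did not share this gap evenly. Rgs5 read 10.29 and 6.22 and Acta2 8.11 and 5.73, but Notch3 read 6.59 and 6.43 and Des 5.45 on both. All 8 listed markers of dopaminergic neurons were above the minimum signal, and Th, which encodes the enzyme that limits dopamine synthesis, read 10.01 to 10.34 on all arrays. The Pitx3 probeset was not lower in the KO arrays (7.87 to 8.08, against 7.63 to 8.10 in WT), and the sources used here do not say whether it lies in the deleted part.

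**Figure D1:**
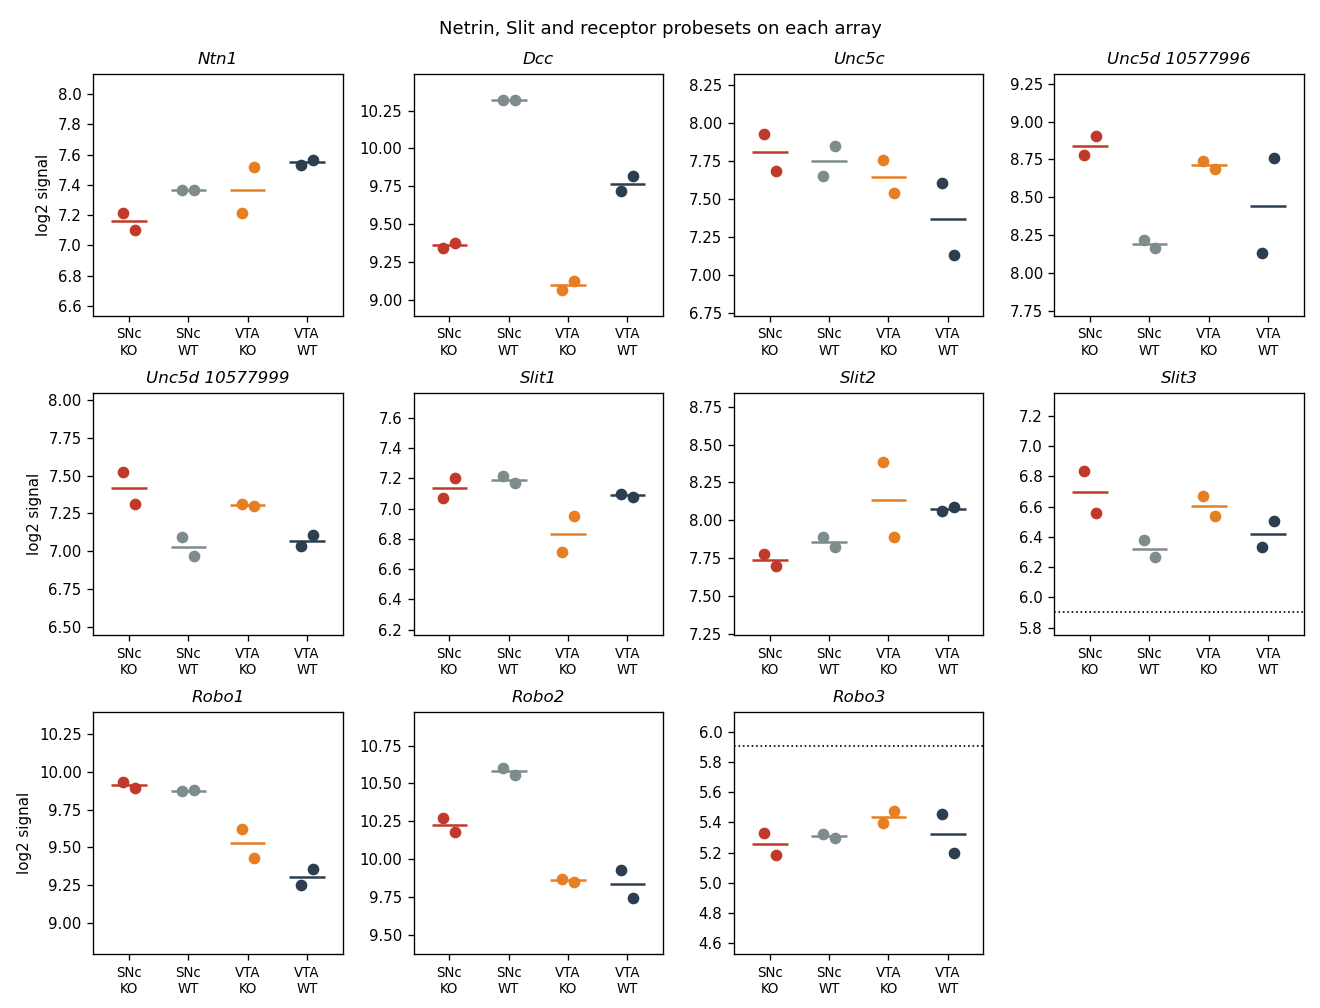
Log2 signal of the 11 probesets on each array (points) with the mean of each group (bars), in panels that span the same range of log2 units. The dotted line marks the minimum signal of 5.91 log2 units, and in the Dcc panel the 4 KO points lie below the 4 WT points.

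Values are log2 RMA signals, and a difference of 1 on this scale is a doubling. The ligand Ntn1 read 7.21 and 7.10 in SNc KO and 7.36 and 7.37 in SNc WT. It read 7.21 and 7.52 in VTA KO and 7.53 and 7.57 in VTA WT. In each region both KO arrays lay below both WT arrays, but one VTA KO array lay close to the WT pair. The log2 differences were -0.21 (SE 0.13) in SNc and -0.18 (SE 0.13) in VTA, with limma adjusted p = 0.757 and 0.679.

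Dcc encodes the transmembrane receptor through which netrin-1 attracts axons. Its probeset read 9.35 and 9.38 in SNc KO and 10.32 and 10.32 in SNc WT. It read 9.07 and 9.13 in VTA KO and 9.72 and 9.82 in VTA WT. No group overlapped another. SNc WT was highest, followed by VTA WT, then SNc KO, with VTA KO lowest. The log2 difference in SNc KO against SNc WT was -0.96 (SE 0.0993, 95% interval -1.20 to -0.72, limma adjusted p = 0.0384), which ranked 27 by p among 22112 probesets. Between VTA KO and VTA WT it was -0.67 (SE 0.0993, 95% interval -0.91 to -0.43), with limma adjusted p = 0.176 and rank 49. The difference was negative in both regions, and in VTA it was larger than the spread between arrays without passing the adjustment. Averaged over both regions the knockout difference was -0.81 (SE 0.0702, limma adjusted p = 0.0172). The SNc difference minus the VTA difference was -0.29 (SE 0.14, limma adjusted p = 0.559), so a stronger fall in SNc was not shown.

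In SNc KO against SNc WT, Dcc was the only one of the 10 tested members called at an adjusted p under 0.05, where 0.149% of all tested probesets were called. At an unadjusted p under 0.05 there were 5 members, beside 8.62%. In the VTA comparison limma called 0 members beside 0.00904% of all tested probesets, and 1 member was at an unadjusted p under 0.05 beside 10.2%. For the knockout difference averaged over both regions 1 member was called (Dcc), beside 0.276% of all tested probesets. Leaving out single arrays kept the Dcc difference in SNc between -0.97 and -0.94, but its call was lost without any one array. The limma adjusted p was then 0.222 or 0.227 without SNc KO replicate 1 or 2, 0.325 or 0.222 without SNc WT replicate 1 or 2, 0.0603 or 0.0599 without VTA KO replicate 1 or 2, and 0.139 or 0.133 without VTA WT replicate 1 or 2. The call was also lost with no filter on signal (limma adjusted p = 0.0775) and with the SNc arrays alone (0.15). The averaged difference passed without either VTA KO array (limma adjusted p = 0.0448 and 0.0367). It did not pass without any one of the other 6 arrays, at limma adjusted p = 0.11 to 0.142 over SNc KO, SNc WT and VTA WT replicates 1 and 2.

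Levels of several cell type markers differed between KO and WT beside the Dcc difference. The summed linear signal of 7 ventral SNc markers was 1093 and 1174 in SNc KO, against 4588 and 4738 in SNc WT, and 6 of the 7 fell at an adjusted p under 0.05 (limma). The same sum was 1576 and 1487 in VTA KO, against 3851 and 3435 in VTA WT. The order of the groups in this sum differed from that of Dcc, since VTA KO lay above SNc KO. The single markers were mixed. Rgs6 and Ndnf ran in the order of Dcc with no overlap of groups. Aldh1a1 and Sox6 had VTA KO above SNc KO, and in Aldh1a7, Drd2 and Kcnj6 the KO groups overlapped. The sum over 7 markers of VTA and dorsal SNc was 2959 and 3253 in SNc KO against 1715 and 1487 in SNc WT. Of the 7, 1 was called higher there and 0 lower (limma). Neurod6 was lower in SNc KO, at 4.70 and 5.38 against 5.54 and 5.45 in SNc WT. Lpl was lower too, at 6.10 and 5.63 against 6.14 and 6.18, and Vip overlapped. In VTA the sum was 3420 and 3621 in KO against 3068 and 3234 in WT, with 0 called higher and 0 lower (limma). Neurod6 ran the other way in VTA as well, at 5.67 and 6.18 in VTA KO against 8.20 and 8.45 in VTA WT. So did Lpl, at 6.36 and 6.19 against 7.29 and 7.91, while the other markers of this list were higher in VTA KO. The sum over the dopaminergic markers was lower in KO, at 5626 and 6266 in SNc KO against 8396 and 7779 in SNc WT. In VTA it was 5539 and 5708 in KO against 6867 and 6814 in WT. Of these 8 markers limma called 0 in either region, and 1 lower in the averaged knockout difference. Slc6a3, Ddc, Slc18a2 and Nr4a2 were lower on both KO arrays in each region, while Th and Foxa2 overlapped between KO and WT in both. En1 was lower in SNc KO but higher in VTA KO, and Lmx1b overlapped in SNc and was barely lower in VTA KO. The sum over 6 measured GABAergic markers was higher in KO, at 1500 and 1384 in SNc KO against 951.3 and 1027 in SNc WT. In VTA it was 1467 and 1271 in KO against 981.7 and 995.6 in WT. Gad2 and Slc32a1 were higher in KO in both regions, whereas Gad1 and Gata2 overlapped. Tal1 was higher in SNc KO and lower in VTA KO. Of the GABAergic markers limma called 0 in either region, and 1 higher in the averaged knockout difference. Gata3 among them was below the minimum signal in every group. The sum over 12 pericyte and smooth muscle markers, with Des below the minimum, was 2327 and 2110 in SNc KO against 960.5 and 891.1 in SNc WT, but 2691 and 711 in VTA KO against 2857 and 2131 in VTA WT. The part of these cell types in the Dcc difference was not tested.

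**Figure D2:**
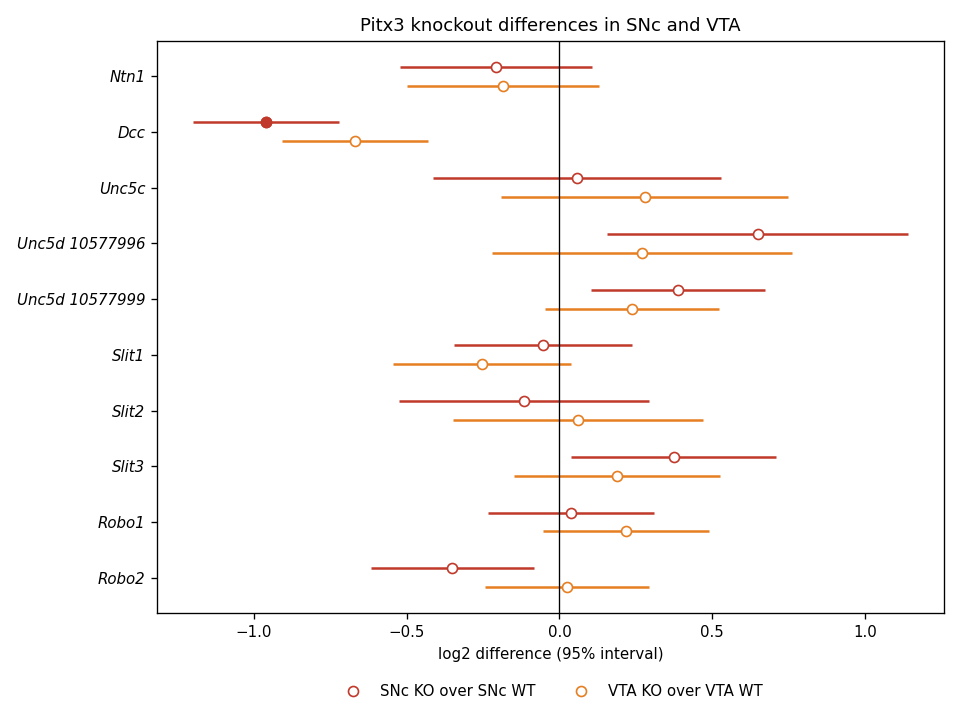
Log2 difference between KO and WT arrays of each tested probeset in SNc and in VTA, with 95% intervals from limma. Filled points passed an adjusted p of 0.05, which only Dcc in SNc did (-0.96).

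Unc5c and Unc5d encode netrin receptors of the repulsive family. Unc5c read 7.93 and 7.69 in SNc KO and 7.65 and 7.85 in SNc WT, and 7.76 and 7.54 in VTA KO and 7.61 and 7.13 in VTA WT. The KO and WT arrays overlapped in both regions. Its differences were 0.06 (SE 0.195) in SNc and 0.28 (SE 0.195) in VTA, with limma adjusted p = 0.974 and 0.674.

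Unc5d was read by 2 probesets. Probeset 10577996 read 8.78 and 8.90 in SNc KO against 8.22 and 8.17 in SNc WT, and 8.74 and 8.69 in VTA KO against 8.13 and 8.76 in VTA WT. The SNc groups were apart, while 1 VTA WT array lay above both VTA KO arrays and the other far below them. Probeset 10577999 read 7.52 and 7.31 in SNc KO against 7.09 and 6.97 in SNc WT, and 7.31 and 7.30 in VTA KO against 7.03 and 7.10 in VTA WT. In this probeset all 4 KO arrays lay above all 4 WT arrays. The SNc differences were 0.65 (SE 0.204) and 0.39 (SE 0.118), with limma adjusted p = 0.444 and 0.426. The averaged knockout differences were 0.46 (SE 0.144) and 0.31 (SE 0.0834), with limma adjusted p = 0.409 and 0.31. The thresholds of the study (p of at most 0.05, ratio of at least 1.5 and signal of at least 60) were applied here to unadjusted limma p-values and RMA group means. They are thus not the study's own calls. By them probeset 10577996 counted as higher in SNc KO and probeset 10577999 did not. In SNc these thresholds took in 2 of the 10 members, Dcc and this probeset, and 3.6% of all tested probesets.

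Slits are the secreted ligands of the Robo receptors. Slit1 read 7.07 and 7.20 in SNc KO and 7.21 and 7.17 in SNc WT, and 6.72 and 6.95 in VTA KO and 7.10 and 7.08 in VTA WT. Slit2 read 7.78 and 7.70 in SNc KO and 7.89 and 7.82 in SNc WT, and 8.38 and 7.89 in VTA KO and 8.06 and 8.09 in VTA WT. For Slit2 the 2 VTA KO arrays lay on either side of the VTA WT pair. Slit3 read 6.84 and 6.56 in SNc KO and 6.38 and 6.27 in SNc WT, and 6.67 and 6.54 in VTA KO and 6.33 and 6.50 in VTA WT. All 4 KO arrays of Slit3 lay above all 4 WT arrays, and its lowest value, 6.27, was near the minimum signal of 5.91. Its knockout difference was 0.37 (SE 0.139) in SNc and 0.19 (SE 0.139) in VTA, with limma adjusted p = 0.532 and 0.696. For Slit1 the differences were -0.05 and -0.25 (SE 0.121 each, limma adjusted p = 0.958 and 0.544), and for Slit2 -0.12 and 0.06 (SE 0.17 each, limma adjusted p = 0.926 and 0.927).

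Slit2 and Slit3 each host a copy of the microRNA miR-218 within their span, and both copies give the same 5p strand. The mature sequences are shown because each host has its own 3p strand by which the copies differ. They come from RefSeq (GRCm38.p6), and capitals mark the seed, bases 2 to 8.
mmu-miR-218-5p (Slit2, chr5:48223966-48223986, and Slit3, chr11:35616840-35616860, both on the plus strand): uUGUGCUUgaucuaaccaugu
mmu-miR-218-1-3p (Slit2, chr5:48224005-48224026, plus strand): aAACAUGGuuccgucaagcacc
mmu-miR-218-2-3p (Slit3, chr11:35616882-35616903, plus strand): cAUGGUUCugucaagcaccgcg
The Mir218-1 probeset, in Slit2, read 5.45 and 6.09 in SNc KO and 6.69 and 5.83 in SNc WT, and 7.18 and 5.66 in VTA KO and 6.53 and 7.11 in VTA WT. Its arrays overlapped between KO and WT in both regions. The Mir218-2 probeset, in Slit3, read 3.73 to 4.13 on the 8 arrays, below the minimum signal throughout.

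Robo1 and Robo2 encode the main neuronal receptors for Slits. Robo1 read 9.93 and 9.89 in SNc KO and 9.62 and 9.43 in VTA KO, and 9.87 and 9.88 in SNc WT and 9.25 and 9.36 in VTA WT. Robo2 read 10.27 and 10.18 in SNc KO and 9.87 and 9.85 in VTA KO, and 10.60 and 10.56 in SNc WT and 9.93 and 9.74 in VTA WT. For both genes every SNc array lay above every VTA array. The difference between SNc and VTA, averaged over both genotypes, was 0.48 (SE 0.0797, 95% interval 0.28 to 0.67, limma adjusted p = 0.0499) for Robo1. For Robo2 it was 0.56 (SE 0.0783, 95% interval 0.37 to 0.75, limma adjusted p = 0.0393). These were the 2 members called in that comparison, in which 1.56% of all tested probesets were called. Of the 10 tested members 2 had all SNc arrays above all VTA arrays and 0 the reverse, against 8.63% and 8.17% of all tested probesets.

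Within one genotype the same differences did not pass. In SNc KO against VTA KO they were 0.39 (SE 0.113, limma adjusted p = 0.199) for Robo1 and 0.37 (SE 0.111, limma adjusted p = 0.204) for Robo2. In SNc WT against VTA WT they were 0.57 (SE 0.113, limma adjusted p = 0.0959) for Robo1 and 0.74 (SE 0.111, limma adjusted p = 0.059) for Robo2. Limma called 0 of the 10 members in SNc KO against VTA KO, where 0.149% of all tested probesets were called, and 4 members were at an unadjusted p under 0.05 beside 17.5%. It called 0 in SNc WT against VTA WT, where 0.439% were called, and 3 members were at an unadjusted p under 0.05 beside 18.8%.

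The calls of both Robo genes were near the threshold and changed with single arrays. Leaving out VTA KO replicate 2 gave limma adjusted p = 0.0298 for Robo1 and 0.0255 for Robo2, and leaving out VTA KO replicate 1 kept Robo1 (0.0476) but not Robo2 (0.0546). Without any one of SNc KO, SNc WT or VTA WT replicates 1 and 2 neither gene passed, with limma adjusted p of 0.141 to 0.163 for Robo1 and 0.113 to 0.146 for Robo2. Without VTA KO replicate 2, Dcc (0.0298) and Slit2 were called as well, and 3231 of all probesets were called in place of 346. Neither gene passed with no filter on signal (limma adjusted p = 0.0882 for Robo1 and 0.0714 for Robo2) or with quantile normalization (0.118 and 0.0691). The summed signal of 13 floor plate and ependymal markers ran opposite to Robo1 and Robo2 between the regions, at 1126 and 1111 in SNc KO against 2770 and 1860 in VTA KO, and 991.3 and 947.5 in SNc WT against 3941 and 3588 in VTA WT. All 13 exceeded the minimum signal in at least 1 group, but they were mixed. Mia, Dynlrb2, Rsph1 and Ccdc153 were lower on every SNc array than on every VTA array. Spon1 was higher in SNc WT (6.79 and 6.85) than in VTA WT (6.74 and 6.63) and overlapped between the KO groups. Corin and Shh overlapped between the WT groups. The sum over 11 astrocyte and radial glia markers, with Aldh1l1, Gfap and Nes below the minimum, was 2789 and 2756 in SNc KO against 3593 and 2295 in VTA KO, and 2735 and 2688 in SNc WT against 4817 and 4511 in VTA WT. The sum over 6 measured markers of red nucleus, oculomotor and serotonergic neurons ran the same way as Robo1 and Robo2, at 498.4 and 388.3 in SNc KO against 233.4 and 189.1 in VTA KO, and 357.3 and 343.1 in SNc WT against 234 and 229.2 in VTA WT. Of these, Isl1 alone was above the minimum signal, with Chat, Phox2a, Pou4f1, Slc6a4 and Tph2 below it in every group, and Isl1 was called higher in the averaged SNc and VTA difference (limma). In that difference limma also called 1 GABAergic and 1 ventral SNc marker higher, and 2 markers of VTA and dorsal SNc lower. Gad1 read 7.09 to 7.62 on the SNc arrays and 6.10 to 6.56 on the VTA arrays, whereas Gad2 was lower in SNc in both genotypes. The part of these cell types in the Robo differences was not tested.

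**Figure D3:**
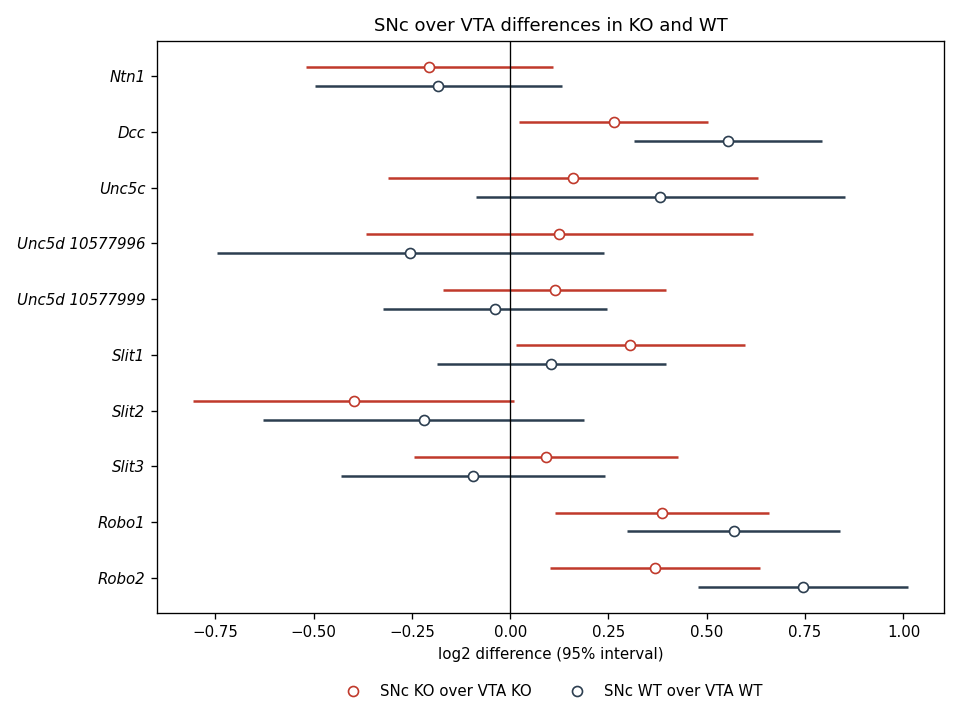
Log2 difference between SNc and VTA arrays of each tested probeset in KO and in WT, with 95% intervals from limma. No point is filled because none passed an adjusted p of 0.05 within a genotype. The intervals of Dcc, Robo1 and Robo2 lie above 0 in both genotypes.

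With the loss of Pitx3 the Robo receptors did not pass the test. Robo2 in SNc KO against SNc WT had a difference of -0.35 (SE 0.111, limma adjusted p = 0.444), and in VTA KO against VTA WT of 0.02 (SE 0.111, limma adjusted p = 0.959). Both SNc KO arrays of Robo2 lay below both SNc WT arrays. The difference between these 2 knockout differences was -0.38 (SE 0.157, limma adjusted p = 0.505). For Robo1 the knockout differences were 0.04 in SNc and 0.22 in VTA (SE 0.113 each, limma adjusted p = 0.971 and 0.576). Limma called 0 members for the difference between the knockout effects, where 0% of all tested probesets were called, and 0 members were at an unadjusted p under 0.05 beside 9.89%. Robo3, a divergent family member that in mammals controls midline crossing, read 5.33 and 5.19 in SNc KO, 5.32 and 5.30 in SNc WT, 5.39 and 5.47 in VTA KO and 5.46 and 5.20 in VTA WT. All of its values were below the minimum signal, and it was not tested.

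Robo1 and Robo2 lie on the same chromosome with 0 protein-coding genes between them, and start on opposite strands. The 250 bases before a start of each are printed because these neighbours were the pair with higher signal in SNc. The RefSeq windows (GRCm38.p6) hold neither searched motif, so no base is in capitals, and the Robo2 window belongs to the first of its 3 listed starts.
Robo1 (chr16:72662899-72663148, plus strand): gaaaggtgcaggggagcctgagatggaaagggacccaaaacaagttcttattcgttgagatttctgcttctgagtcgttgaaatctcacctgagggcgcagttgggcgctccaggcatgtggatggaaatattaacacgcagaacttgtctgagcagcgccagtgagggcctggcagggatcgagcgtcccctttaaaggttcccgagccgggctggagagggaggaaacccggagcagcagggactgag
Robo2 (chr16:75447294-75447543, minus strand): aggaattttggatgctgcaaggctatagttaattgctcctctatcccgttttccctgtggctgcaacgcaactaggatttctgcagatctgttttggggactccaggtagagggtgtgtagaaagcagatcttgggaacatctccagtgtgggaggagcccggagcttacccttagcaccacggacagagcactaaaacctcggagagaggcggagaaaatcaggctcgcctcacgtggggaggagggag
The motifs searched on both strands were TAATCC, bound by bicoid-class homeodomain proteins such as Pitx3, and AAAGGTCA, bound by monomers of Nr4a2 (Nurr1). Over the 8 windows listed for 6 member genes (Unc5c, Slit2, Slit3, Robo1, Robo2 and Robo3), TAATCC occurred in 1, that of Robo3, and in 6.25% of 32841 promoter windows of the same length. AAAGGTCA occurred in 0 of the 8 and in 1.34% of all windows. Ntn1, Dcc, Unc5d and Slit1 had no window among these 8. The selection of member windows left out the chromosome that holds Dcc, so the 8 say nothing of either motif in Dcc.

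No netrin, netrin receptor or Slit probeset passed the test between SNc and VTA as deposited. For Dcc the difference between SNc and VTA was 0.26 (SE 0.0993, limma adjusted p = 0.257) in KO and 0.55 (SE 0.0993, limma adjusted p = 0.083) in WT. Averaged over both genotypes it was 0.41 (SE 0.0702, limma adjusted p = 0.0515), just short of the threshold. It passed with a minimum signal of 100 (limma adjusted p = 0.042), a variance trend (0.0426), median subtraction (0.0355) and without VTA KO replicate 2 (0.0298), and in the other alternatives it did not, up to 0.167. Unc5c had 0.16 (SE 0.195) in KO and 0.38 (SE 0.195) in WT, and Ntn1 had -0.21 (SE 0.13) in KO and -0.18 (SE 0.13) in WT, none of them past an adjusted p of 0.05 (limma). For the averaged difference Slit2 had -0.31 (SE 0.12, limma adjusted p = 0.17) and Slit1 had 0.20 (SE 0.0855, limma adjusted p = 0.188). The Unc5d probesets had -0.06 and 0.04 and Slit3 had -0.0018, with limma adjusted p = 0.792, 0.791 and 0.993.

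In SNc KO against SNc WT the members showed no common direction. Of the 10 tested, 5 were positive and 5 negative, with a median of -0.01 beside 0.01 over all tested probesets, and 8 did not overlap between the groups, where 44% of all tested probesets did not. For VTA KO and VTA WT, 7 were positive and 3 negative, with a median of 0.12 beside -0.02, and 6 did not overlap, where 38.2% of all tested probesets did not. Across both regions 2 members (the Unc5d probeset 10577999 and Slit3) had all 4 KO arrays above all 4 WT arrays, against 1.96% of all tested probesets, and 1 (Dcc) had them below, against 1.31%.

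The wider pathway was described from 3 lists of 62 genes in all. Limma called 0 of the tested genes of these lists in any of the 7 comparisons, and the counts at an unadjusted p under 0.05 follow. In SNc KO against SNc WT, 1 of 15 tested genes among other netrins, receptors and ligands was lower, 1 of 12 other Slit and Robo partners was higher, and 1 of 26 cytoplasmic effectors was lower, beside 8.62% of all tested probesets. The first was Flrt3, a membrane protein that binds Unc5 receptors, which read 7.45 and 7.22 in SNc KO against 7.88 and 8.15 in SNc WT, and 7.32 and 7.70 in VTA KO against 7.94 and 8.22 in VTA WT. All 4 KO arrays of Flrt3 lay below all 4 WT arrays, with an averaged knockout difference of -0.63 (SE 0.133, limma adjusted p = 0.204). Hs6st2, which adds 6-O-sulfate to heparan sulfate, read 7.89 and 7.73 in SNc KO against 6.64 and 6.93 in SNc WT, a difference of 1.02 (SE 0.189, limma adjusted p = 0.174). In VTA it read 7.44 and 7.79 in KO against 7.34 and 7.01 in WT. Cap2, an actin regulator, differed by -0.33 (SE 0.128, limma adjusted p = 0.548) in SNc. Between VTA KO and VTA WT the counts were 2 higher and 1 lower, 0 higher and 1 lower, and 0 and 0 over the same 3 lists, beside 10.2% of all tested probesets. Lrrc4c, a ligand of netrin-G1, had 0.43 (SE 0.113, limma adjusted p = 0.286) there, and Ext1, a heparan sulfate polymerase, had -0.34 (SE 0.119, limma adjusted p = 0.407).

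Between the regions, the averaged SNc and VTA difference had an unadjusted p under 0.05 in 1 higher and 1 lower gene of the first list, 3 higher and 1 lower of the second and 6 higher and 0 lower of the effectors, where 26.8% of all tested probesets did. Srgap1, a GTPase activating protein that binds Robo1, read 8.48 and 8.24 in SNc KO against 7.93 and 7.80 in VTA KO, and 8.38 and 8.46 in SNc WT against 8.04 and 7.97 in VTA WT. Every SNc array of Srgap1 lay above every VTA array, with a difference of 0.45 (SE 0.0875, limma adjusted p = 0.0607). Dscam, another netrin receptor, read 8.51 and 8.57 in SNc KO against 8.28 and 8.10 in VTA KO, and 8.59 and 8.49 in SNc WT against 8.18 and 8.10 in VTA WT. Its difference was 0.37 (SE 0.0798, limma adjusted p = 0.0713). Of the genes of heparan sulfate, Ext1 had -0.46 (SE 0.0844, limma adjusted p = 0.0565) and Hs6st1 had 0.43 (SE 0.0879, limma adjusted p = 0.0664). Ntn4, a secreted netrin, had -0.20 (SE 0.0806, limma adjusted p = 0.179), and Cap1, an actin regulator, had 0.34 (SE 0.136, limma adjusted p = 0.176).

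The tested probesets whose pattern over the 8 arrays was most like that of Dcc were Col25a1 (Pearson r = 0.99), Nwd2 (r = 0.99), Gpr158 (r = 0.99), Nos1ap (r = 0.99) and Ift57 (r = 0.99), out of 14665 with 1 symbol. The 8 points fall into 4 groups of arrays that all these genes share, so the likeness is a description with no test. Col25a1 read 6.80 and 6.83 in SNc KO against 7.30 and 7.38 in SNc WT, and 6.60 and 6.59 in VTA KO against 6.95 and 7.07 in VTA WT. As for Dcc, its 4 groups did not overlap and ran from SNc WT at the top through VTA WT and SNc KO to VTA KO.

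**Figure D4:**
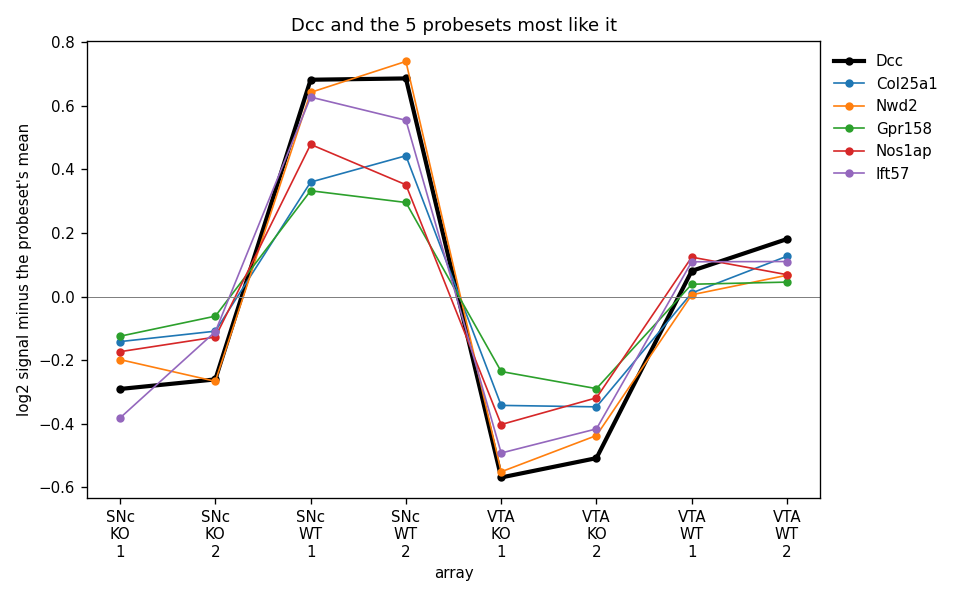
Log2 signal of Dcc and of the 5 probesets most like it on each array, as the difference from each probeset's mean over the 8 arrays. All 6 are highest on the 2 SNc WT arrays, and the lines only join the values of 1 probeset.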

How the data were processed

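Expression of sorted mDA neurons was measured on 8 arrays. The authors summarised and normalized the probes with RMA (RMA Express by the methods) and deposited log2 values per probeset. Their methods also name the LPE algorithm, which was not run here. Neither the RMA version nor the build is given in the sources used here. Symbols came from the platform annotation, in which 21789 probesets have 1 symbol, 1621 several and 12102 none. All 11 member probesets kept their symbol in a GRCm38.p6 gene table.

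All 8 arrays entered a single limma model (limma 3.58.1, R 4.3.3) of 4 group means, with moderated variances on 4 residual plus 2.4 prior degrees of freedom. It was run on the 22112 probesets whose mean signal reached 60 (linear) in any group. A call is a p under 0.05 after Benjamini-Hochberg adjustment over them. Precision is that of 2 arrays per group. The calling was tested on simulated data. Members and gene lists were chosen with earlier results of these data known. Every member is named. Of the other lists, genes that passed were to be named, or else the 2 with the largest differences at an unadjusted p under 0.05. Alternatives were other signal minimums, scalings and variance models, array weights, a replicate block, 2 groups alone and each array left out. Marker lists not named in the text are not reported here.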

Additional observations from a re-analysis of the deposited data

How the results depend on the processing

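Of 1090 alternative values of single probesets, 1064 kept their direction, and none of the 26 that turned belonged to a called difference. Dcc kept its direction in all 16 alternatives of SNc KO against SNc WT and passed in 5 of them, with limma adjusted p between 0.0168 and 0.325, and the averaged knockout difference passed in 9 of 15 (0.0112 to 0.142). The averaged SNc and VTA difference passed in 5 of 15 for Robo1 (0.0298 to 0.163) and 5 of 15 for Robo2 (0.0242 to 0.146).

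In SNc KO against SNc WT 33 of all probesets were called as deposited. Members called there numbered 0 with no filter on signal (14 of all) and 0 with the 2 groups alone (0 of all). At the thresholds of the study they numbered 2 (3.6% of all). In VTA KO against VTA WT the thresholds of the study gave 1 (Dcc), beside 4.35% of all tested probesets. In SNc WT against VTA WT, where 97 of all probesets were called as deposited, the count was 1 with a minimum signal of 100 (129 of all), 1 with a variance trend (114), 3 with array weights (847), 1 with median subtraction (120), 1 at the thresholds of the study (1464) and 0 to 1 without single arrays. In SNc KO against VTA KO, with 33 of all called as deposited, the Slit2 difference was -0.40 and ran from -0.65 to -0.15 without single arrays. For the averaged knockout difference, with 61 of all called as deposited, Dcc ran from -0.84 to -0.79 without single arrays. The averaged SNc and VTA difference, with 346 of all called as deposited, gave 3 (Robo1, Robo2 and Dcc) with a minimum signal of 100 (475 of all), a variance trend (417) and median subtraction (809). It gave 0 with no filter (94), 1 with array weights (292), 0 with quantile normalization (199), 0 at the thresholds of the study (1054) and 0 to 4 without single arrays.

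Same-numbered deviations correlated by only 0.006 to 0.098, so no strong shift was shared by replicate number. These values cannot tell whether same-numbered pools were prepared together. With a replicate block the count was 0 in SNc KO against SNc WT (Dcc, limma adjusted p = 0.105), 0 in the averaged SNc and VTA difference (Robo1 0.0755, Robo2 0.0592) and still 1 in the averaged knockout difference (0.0478).

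Direction turned when single arrays were left out, over these ranges. In SNc KO against SNc WT they were -0.12 to 0.013 for Slit1 and -0.063 to 0.18 for Unc5c. In VTA KO against VTA WT they were -0.068 to 0.12 for Robo2, -0.19 to 0.31 for Slit2 and -0.046 to 0.59 for Unc5d 10577996. In SNc WT against VTA WT they were -0.57 to 0.063 for Unc5d 10577996 and -0.10 to 0.024 for Unc5d 10577999, and in SNc KO against VTA KO -0.049 to 0.23 for Slit3. For the SNc minus VTA knockout effect they were -0.17 to 0.13 for Ntn1, -0.46 to 0.018 for Unc5c and -0.43 to 0.070 for Slit2, and for the averaged knockout difference -0.15 to 0.096 for Slit2. For the averaged SNc and VTA difference they were -0.072 to 0.068 for Slit3, -0.22 to 0.094 for Unc5d 10577996 and -0.016 to 0.091 for Unc5d 10577999.

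Scaling turned values near 0. In SNc WT against VTA WT, Slit3 became 0.0020 with quantile normalization and 0.012 with median subtraction, and Unc5d 10577999 became 0.068 with median subtraction. In the averaged SNc and VTA difference, Slit3 became 0.048 with quantile normalization and 0.088 with median subtraction, and Unc5d 10577996 became 0.026 with median subtraction. Median subtraction moved the median of all tested probesets by 0.106 in SNc WT against VTA WT, where calls went to 36 higher and 84 lower, against 18 and 79 as deposited. In the averaged SNc and VTA difference it gave 570 higher and 239 lower, against 132 and 214. In VTA KO against VTA WT quantile normalization gave 5 higher and 3 lower and median subtraction 7 and 3, against 2 and 0. The cause was not tested.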
